A study of Homo sapiens with 9 samples.

Results

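Chemokine mRNAs were followed over 9 Affymetrix arrays of Hec50, an established line of human endometrial cancer cells. The set holds 10 genes, namely CXCL1, CXCL2, CXCL3, CXCL5, CXCL8, CXCL12, CXCL16, CX3CL1, CCL2 and CCL20. Every probe set whose only annotated gene symbol was one of these was taken, which gave 17 of the 54675 probe sets in the table. A probe set is a group of short probes that report on 1 transcript, and its ID is given beside the gene below. The genes were chosen on the differences between mimic and control arrays that an earlier reading of this table gave. Their values and calls are therefore a description, and no p-value is given for any of them.

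The study asked which genes respond to the microRNA miR-200c in an aggressive cancer, and it had 3 groups of 3 arrays. The first group was Hec50 cells given a synthetic miR-200c mimic at 60 nM, with RNA taken at 48 h. The second was Hec50 cells given a scrambled negative control RNA at the same dose and time. The third was mock transfected Hec50 cells, for which the labels give no separate time. All were grown in the same serum-containing medium, and all come from a single cell line. Whether the replicates are separate cultures is not in the labels, so the spread between them may be technical.

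Chemokines are small proteins that draw cells along a gradient, and they are named after the spacing of their first cysteines. CXCL1, CXCL2, CXCL3, CXCL5 and CXCL8 carry a glutamate-leucine-arginine motif and attract neutrophils through CXCR2, with CXCL8 also using CXCR1. Their genes lie in a cluster on chromosome 4 and are known targets of the transcription factor NF-kB in epithelial cells. CXCL12 lies elsewhere, is made in quantity by stromal cells, and binds CXCR4 and the scavenging receptor ACKR3. CCL2 attracts monocytes through CCR2, CCL20 attracts cells that bear CCR6, and CX3CL1 and CXCL16 are made as membrane proteins whose outer part can be cut off. miR-200c belongs to the miR-200 family, which epithelial cells make in quantity and which represses ZEB1 and ZEB2, repressors of the E-cadherin gene CDH1.

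The mature miR-200c strand that the mimic is named for is printed here from RefSeq (GRCh38.p14, chr12:6963742-6963764, plus strand) because its seed, bases 2 to 8 and in capitals, is the part that pairs with target mRNAs.
hsa-miR-200c-3p: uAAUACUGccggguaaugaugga
No predicted or measured target site in a chemokine mRNA is given, since target sites were not analysed here.

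The promoter sequences of RefSeq (GRCh38.p14), 250 bases before to 50 after a gene's start, held 7 of the 10 genes. CXCL16, CX3CL1 and CCL2 were not among them. The letters GGAATTTCC, which are the kappaB element known from CXCL8, were searched on both strands (GGAAATTCC on the other). They stood once in each of the CXCL1, CXCL2, CXCL3, CXCL5 and CXCL8 promoters, and in 162 of all 35116 promoters (0.461%). These exact letters did not stand in the CXCL12 or CCL20 windows. Other forms of the kappaB element were not searched, so these windows are not shown to lack one. The matches are printed with 10 flanking bases on each side and the 9 matched letters in capitals, because these 5 neighbouring genes share them. The part of this element in the values below was not tested.
CXCL8 (chr4:73740468-73740496, plus strand): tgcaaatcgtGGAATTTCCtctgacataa
CXCL1 (chr4:73869305-73869333, plus strand): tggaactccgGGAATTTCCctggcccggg
CXCL2 (chr4:74099254-74099282, minus strand): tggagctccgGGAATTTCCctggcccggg
CXCL3 (chr4:74038749-74038777, minus strand): tggagctccgGGAATTTCCctggcccggc
CXCL5 (chr4:73998749-73998777, minus strand): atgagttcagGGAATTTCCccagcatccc
The first matched base lay 91, 78, 77, 78 and 90 bases before the gene start in CXCL8, CXCL1, CXCL2, CXCL3 and CXCL5. The windows of CXCL1, CXCL2 and CXCL3 are nearly the same outside the capitals as well.

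The letters TGACTCA, an AP-1 element, were searched likewise on both strands (TGAGTCA on the other), and this motif does not overlap the first. It stood in 1738 of the 35116 promoters (4.95%), and among the chemokines in the CXCL8 promoter only. The stretch from 160 to 61 bases before the start is printed for CXCL8 and CXCL12, the genes with the largest differences upward and downward, with matches to either motif in capitals.
CXCL8 (chr4:73740409-73740508, plus strand): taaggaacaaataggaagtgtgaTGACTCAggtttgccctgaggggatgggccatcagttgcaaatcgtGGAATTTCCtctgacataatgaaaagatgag
CXCL12 (chr10:44385158-44385257, minus strand): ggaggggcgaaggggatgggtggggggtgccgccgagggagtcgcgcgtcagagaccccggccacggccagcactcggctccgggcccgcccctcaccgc
A match describes these letters and does not show that a factor binds there.

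All expression values are on a log2 scale from which the probe set's own median was taken off, so 0 is that median over the 9 arrays, a value is a difference from it, and levels cannot be compared between genes. A rough level class was recovered from the rounding of the stored numbers. By it, 6 of the 17 chemokine probe sets lay at 8 or more on the original log2 scale, 7 lay from 4 to 8, and 4 lay below 4. A low class does not show that a gene was undetected. The number of arrays limits the precision. Within a group, the SD over the 3 arrays ran from 0.02 to 0.22 in mimic arrays, from 0.00 to 0.23 in scrambled arrays and from 0.00 to 0.21 in mock arrays.

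CDH1, ZEB1 and ZEB2 served as the check of the mimic labels. In the gene-level fit, CDH1 was higher in mimic than in scrambled arrays (limma log2 difference 3.26, SE 0.12, n = 3 each, adjusted p = 8.8e-08), although its 2 probe sets gave 0.58 and 3.26. ZEB1 was lower by the same test (log2 difference -1.57, SE 0.06, adjusted p = 1.42e-07). Its difference ran from -1.6 to -0.99 over the alternatives, and its probe set 212758_s_at gave -0.65. ZEB2 was lower by less (-0.27, SE 0.08, adjusted p = 0.037), a call lost in most alternatives. Of 6 epithelial markers, EPCAM, KRT7, KRT8 and KRT18 lay in the class of 8 or more, and CDH1 and KRT19 from 4 to 8. The Mullerian markers PAX8 and WT1 lay at 8 or more too, PAX2, EMX2, ESR1 and PGR from 4 to 8, and SOX17 below 4. In the class of 8 or more were also ITGAM and NCAM1 of the leukocyte markers and TEK and ENG of the endothelial ones. COL1A1, COL1A2 and THY1 of the fibroblast markers were there as well, so the class does not tell these cell types apart. Of the 7 endometrial and Mullerian markers, 2 (PAX8 and WT1) were lower in mimic than in scrambled arrays and 4 were lower than in mock arrays, with list medians of -0.09 and -0.23. The mean of the 6 epithelial markers moved with the groups, at 0.78 to 0.94 in mimic arrays, -0.08 to 0.00 in scrambled arrays and -0.06 to -0.05 in mock arrays, and much of that mean is CDH1. Of the 6, 4 were called higher (CDH1, EPCAM, KRT8 and KRT18), with a median of 0.51 and a lowest difference of -0.06. The part of these markers in the chemokine results was not tested. Of 9 leukocyte and 8 fibroblast markers none was called between mimic and scrambled arrays by limma at an adjusted p under 0.05 (at an unadjusted p under 0.05, 0 leukocyte and 1 fibroblast marker), and 1 of 8 endothelial markers, ENG, was lower (log2 difference -0.41). Against mock, 2 leukocyte markers, CD3E and ITGAM, were higher, and 1 of them, CD3E, was also higher in scrambled than in mock arrays. The difference between the 3' and 5' probe sets of ACTB, a sign of RNA quality, averaged 0.02 ± 0.08 in mimic arrays, 0.10 ± 0.04 in scrambled arrays and -0.18 ± 0.03 in mock arrays (SD, n = 3). The same difference for GAPDH averaged -0.02 ± 0.03, 0.01 ± 0.02 and 0.03 ± 0.04, so the lower mock value was seen for ACTB only. The part of RNA quality in differences from mock was not tested.

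Between mimic and scrambled arrays, CXCL8, CXCL1 and CCL2 stood higher and CXCL12 stood lower, by 1.25-fold to 1.77-fold, while CX3CL1 was higher by less and CXCL2, CXCL3, CXCL5, CXCL16 and CCL20 overlapped between the groups. Of the 17 probe sets, 5 were called higher and 2 lower (limma over all probe sets, with 0.05 as the threshold on p after Benjamini-Hochberg adjustment), and 10 were not called. Over all 54613 probe sets fitted, 4.52% were called higher and 4.15% lower. Because the genes were chosen with this contrast known, nothing is read from their share. All 3 mimic values lay above all 3 scrambled values in 6 probe sets and below them in 2, and the groups overlapped in 9. The share of all probe sets that separate in this way is not given here, so nothing is read from these counts. The median difference of the 17 was 0.13, against -0.01 for all probe sets. In bulk RNA, fewer cells that make a transcript and less transcript per cell cannot be told apart.

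**Figure D1:**
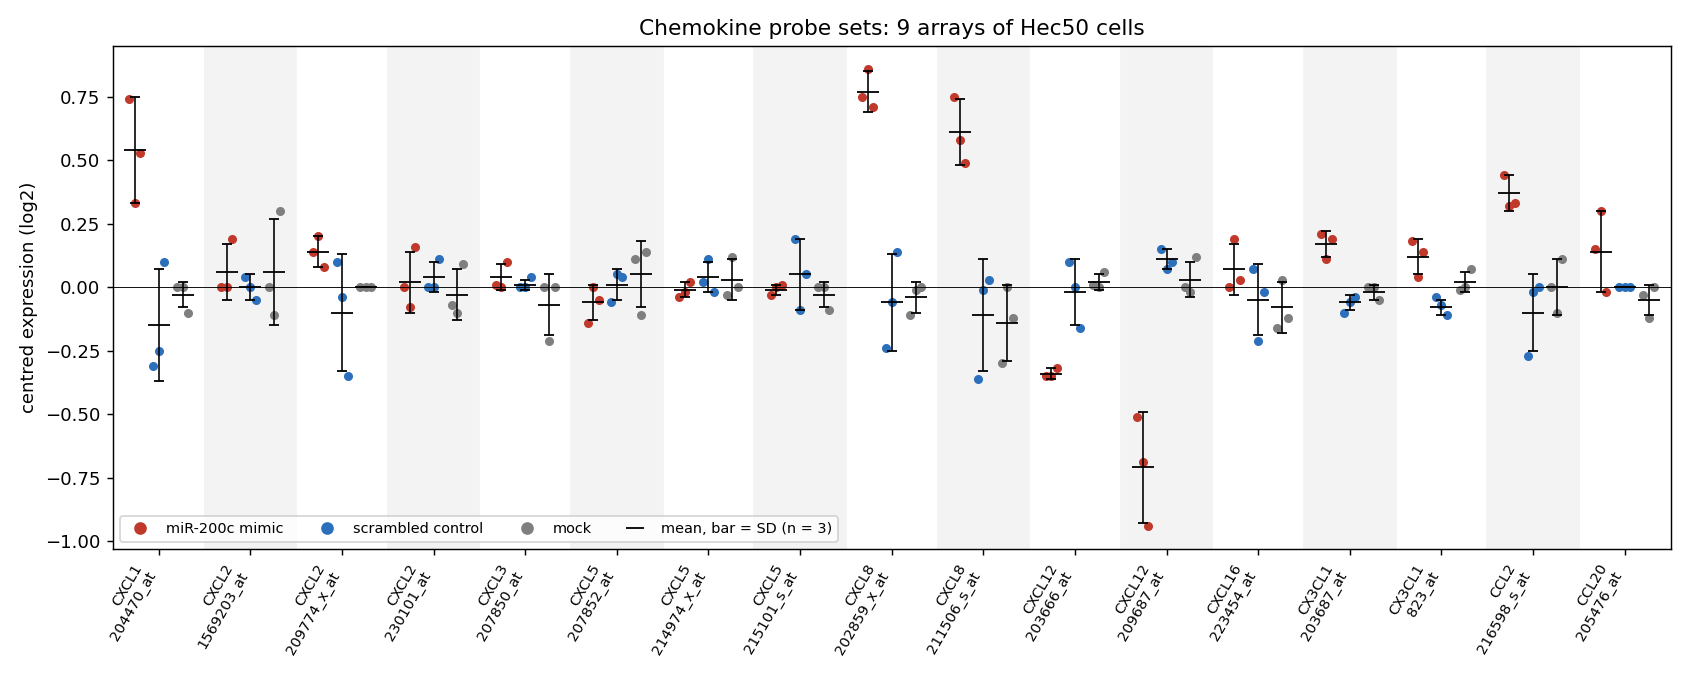
Centred log2 expression of the 17 chemokine probe sets on each of the 9 arrays, with mimic arrays in red, scrambled control arrays in blue and mock arrays in grey. Lines are group means and bars are SDs (n = 3). The 3 mimic arrays of CXCL8 202859_x_at sit between 0.71 and 0.86 and those of CXCL12 209687_at between -0.94 and -0.51, apart from both control groups.

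CXCL8, the neutrophil attractant also called interleukin 8, had the largest difference upward. Its probe set 202859_x_at read 0.75, 0.86 and 0.71 in mimic arrays, against -0.24, -0.06 and 0.14 in scrambled arrays and -0.11, -0.01 and 0.00 in mock arrays. Every mimic array lay above all 6 control arrays, and the 2 control groups overlapped. The mimic mean exceeded the scrambled mean by 0.83 on the log2 scale (SE 0.09, 1.77-fold) and the mock mean by 0.81 (1.76-fold). The gap between the lowest mimic and the highest scrambled array was 0.57, against an SD of 0.08 within mimic arrays and 0.19 within scrambled arrays.

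The second CXCL8 probe set, 211506_s_at, read 0.75, 0.58 and 0.49 in mimic arrays, against -0.36, -0.01 and 0.03 in scrambled arrays and -0.30, 0.00 and -0.12 in mock arrays. Again no mimic array overlapped a control array. The difference was 0.72 from scrambled (SE 0.12, 1.65-fold) and 0.75 from mock (1.68-fold). Over the 9 arrays the probe sets of CXCL8 correlated at r = 0.97, which describes arrays in 3 groups and carries no test.

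CXCL1, another neutrophil attractant of the same family, was measured by 1 probe set, 204470_at. It read 0.74, 0.33 and 0.53 in mimic arrays, against -0.31, -0.25 and 0.10 in scrambled arrays and 0.00, 0.00 and -0.10 in mock arrays. The mimic arrays lay above all 6 controls but were spread widely, with an SD of 0.21, and the scrambled SD was 0.22. The difference was 0.69 from scrambled (SE 0.12, 1.61-fold) and 0.57 from mock (1.48-fold).

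CXCL2, whose mRNA is close in sequence to that of CXCL1, showed no such separation. Its probe set 209774_x_at read 0.14, 0.20 and 0.08 in mimic arrays, against 0.10, -0.04 and -0.35 in scrambled arrays and 0.00 in all 3 mock arrays. The mimic arrays lay above every mock array but overlapped the scrambled ones, and the differences were 0.24 from scrambled (SE 0.10) and 0.14 from mock. Of the other CXCL2 probe sets, 1569203_at differed by 0.07 from scrambled and by 0.00 from mock, and 230101_at, in the class below 4, by -0.01 and 0.05. The probe sets of CXCL2 did not follow each other, with r of 0.21, 0.63 and -0.37 over the 9 arrays. An ID ending in x_at marks probes that can bind other transcripts, so 209774_x_at could also report on CXCL1 or CXCL3, and the x_at probe set of CXCL8 carries the same caution.

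CXCL3 207850_at read 0.01, 0.00 and 0.10 in mimic arrays, against 0.00, 0.00 and 0.04 in scrambled arrays and 0.00, -0.21 and 0.00 in mock arrays. The groups overlapped, with a difference of 0.02 from scrambled (SE 0.07) and 0.11 from mock. CXCL5, which attracts neutrophils through CXCR2 as well, had 3 probe sets, all in the class below 4. They differed from scrambled by -0.08, -0.05 and -0.06 and from mock by -0.11, -0.04 and 0.02, within overlapping groups, and their correlations with each other were -0.14, -0.33 and -0.17. Values of this class say little on whether CXCL5 mRNA was present.

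Along chromosome 4 the protein-coding genes of this cluster run in the order CXCL8, CXCL6, PF4V1, CXCL1, PF4, PPBP, CXCL5, CXCL3 and CXCL2 in RefSeq. The neighbours outside the set were not called by limma between mimic and scrambled arrays. CXCL6, a further CXCR2 ligand, differed by -0.06 (SE 0.06), the platelet chemokine genes PF4V1, PF4 and PPBP by -0.10, -0.05 and 0.04 (SE 0.11, 0.06 and 0.07), and all but PF4 were in the class below 4. These 4 genes are named for their place in the cluster, chosen after their values were seen. Differences upward beyond 0.5 thus stood at CXCL8 and CXCL1 and not at the genes between them.

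**Figure D2:**
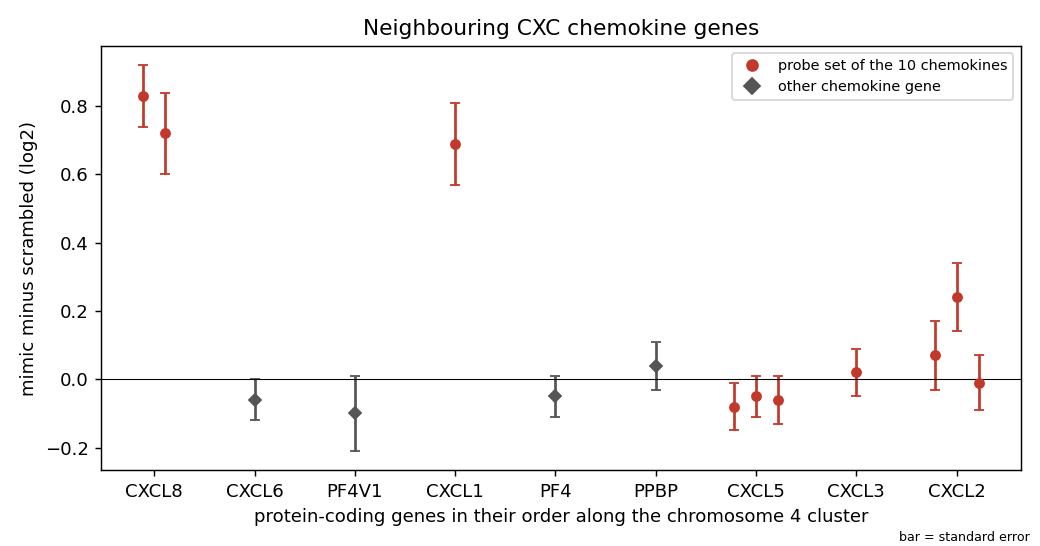
Difference between mimic and scrambled means on the log2 scale for the protein-coding CXC chemokine genes of the chromosome 4 cluster, in their order but not to distance. Red circles are chemokine probe sets, grey diamonds are other chemokine genes of the gene-level fit, and bars are standard errors. CXCL8 (0.83 and 0.72) and CXCL1 (0.69) stand apart from the other genes, which lie between -0.10 and 0.24.

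CXCL12, the ligand of CXCR4, went the other way. Its probe set 209687_at read -0.51, -0.69 and -0.94 in mimic arrays, against 0.15, 0.07 and 0.10 in scrambled arrays and 0.00, -0.02 and 0.12 in mock arrays. All mimic arrays lay below all controls, by at least 0.58 from scrambled and 0.49 from mock. The mimic arrays also varied more among themselves (SD 0.22) than the scrambled (0.04) or mock arrays (0.07). The difference was -0.82 from scrambled (SE 0.09, 1.76-fold lower) and -0.74 from mock (1.67-fold lower).

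CXCL12 203666_at read -0.35, -0.35 and -0.32 in mimic arrays, against 0.10, 0.00 and -0.16 in scrambled arrays and 0.01, 0.00 and 0.06 in mock arrays. The separation was smaller and still complete. The difference was -0.32 from scrambled (SE 0.07, 1.25-fold lower) and -0.36 from mock (1.29-fold lower), in the class from 4 to 8 where 209687_at lay at 8 or more. The probe sets of CXCL12 correlated at r = 0.88. Which transcript forms each one reports on was not analysed here.

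CCL2, the monocyte attractant, was measured by 216598_s_at. It read 0.44, 0.32 and 0.33 in mimic arrays, against -0.27, -0.02 and 0.00 in scrambled arrays and 0.00, -0.10 and 0.11 in mock arrays. The mimic arrays lay above all 6 controls. The difference was 0.46 from scrambled (SE 0.08, 1.38-fold) and 0.36 from mock (1.28-fold). The call against mock was lost without mock replicate 1 (0.36), mock replicate 2 (0.31) or mimic replicate 1 (0.32), with the difference still upward.

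CCL20, which attracts cells bearing CCR6, read 0.15, 0.30 and -0.02 on 205476_at in mimic arrays, against 0.00 in all 3 scrambled arrays and -0.03, -0.12 and 0.00 in mock arrays. One mimic array lay among the controls, so the groups overlapped. The differences were 0.14 from scrambled and 0.19 from mock (SE 0.08). Without mimic replicate 3, the array among the controls, the difference from mock was 0.27 and passed the threshold.

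CX3CL1, or fractalkine, is a membrane-anchored chemokine that binds CX3CR1. On 203687_at it read 0.21, 0.11 and 0.19 in mimic arrays, against -0.10, -0.06 and -0.04 in scrambled arrays and 0.00, 0.00 and -0.05 in mock arrays. Mimic arrays lay above all controls, by a small step of 0.23 from scrambled (SE 0.05, 1.17-fold) and 0.18 from mock (1.14-fold), a call that was lost in 11 of 14 alternatives. On 823_at it read 0.18, 0.04 and 0.14 in mimic arrays, against -0.04, -0.07 and -0.11 in scrambled arrays and -0.01, 0.00 and 0.07 in mock arrays.

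On 823_at the mimic arrays were above the scrambled ones (difference 0.19, SE 0.06) but overlapped mock (0.10), and the scrambled arrays lay below all mock arrays. The 2 CX3CL1 probe sets correlated at r = 0.84 and stood on opposite sides of the threshold for mimic against scrambled arrays. The call of 203687_at was lost without scrambled replicate 1 (0.22), mimic replicate 1 (0.21) or mimic replicate 3 (0.22), and 823_at passed without mimic replicate 2 (0.23). CXCL16, the other membrane-anchored member, read 0.00, 0.19 and 0.03 in mimic arrays on 223454_at, against 0.07, -0.21 and -0.02 in scrambled arrays and -0.16, 0.03 and -0.12 in mock arrays. Its groups overlapped, with differences of 0.13 from scrambled and 0.16 from mock (SE 0.08).

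Single arrays recurred at the ends of the range. Among the 6 probe sets with every mimic array above every scrambled array, the lowest of the 9 values was scrambled replicate 1 in 5, and the highest was mimic replicate 1 in 5. Without scrambled replicate 1 the calls of CXCL8, CXCL1 and CCL2 against scrambled remained.

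Against mock, CXCL8, CXCL1, CCL2 and CX3CL1 203687_at were called higher and CXCL12 lower. Of the 17 probe sets, 5 were called higher and 2 lower, where 5.07% of all probe sets were called higher and 6.98% lower. The mimic arrays lay above all mock arrays in 6 probe sets, below them in 2 and overlapped them in 9. Nothing is read from these counts either, without the share of all probe sets that separate. The median difference was 0.11, against 0.01 for all probe sets. This comparison uses the same mimic arrays as the one with the scrambled control, so the pair are not independent.

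Between scrambled and mock arrays the chemokine differences were small. None of the 17 probe sets was called between scrambled and mock arrays by limma (0 at an unadjusted p under 0.05 as well). Over all probe sets, 1.23% were called higher and 2.84% lower, and 19.4% had an unadjusted p under 0.05. With so few adjusted calls over all probe sets, no adjusted call among 17 is near the background and is not a result about the chemokines. The unadjusted count lay below the share over all probe sets. Nothing is read from it, since the genes were chosen on differences between mimic and control arrays. The differences ran from -0.12 for CXCL1 to 0.09 for CXCL3, with standard errors of 0.05 to 0.12 and a median of -0.02 against 0.01 for all probe sets. The scrambled and mock arrays overlapped in 16 of 17 probe sets, a count given without its share over all probe sets. For CXCL8, CXCL1, CCL2, CX3CL1 203687_at and CXCL12 the mimic arrays lay beyond all control arrays, and the scrambled and mock arrays overlapped.

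**Figure D3:**
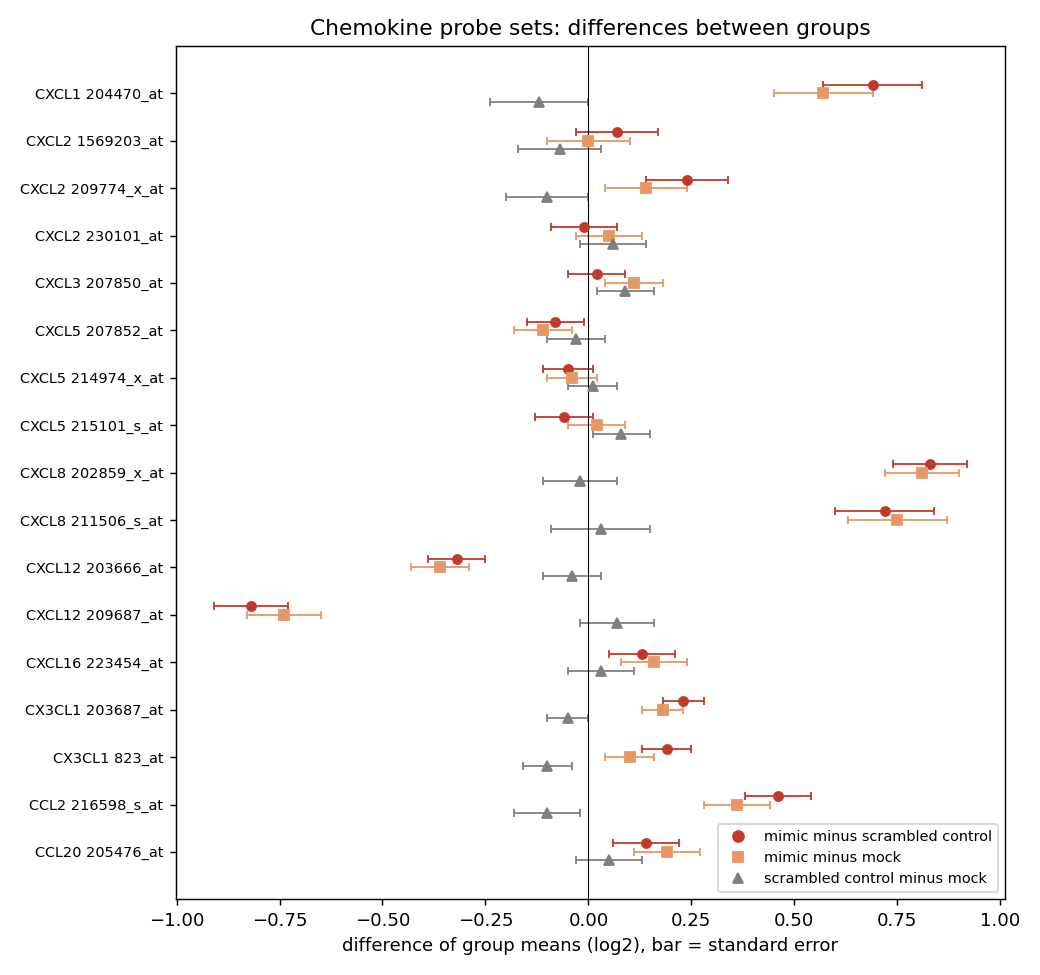
Differences of group means on the log2 scale for the 17 chemokine probe sets, with bars of 1 standard error. Red circles are mimic minus scrambled, orange squares mimic minus mock and grey triangles scrambled minus mock, which all lie between -0.12 and 0.09.

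The genes whose pattern over the 9 arrays was most like that of CXCL8 202859_x_at were sought among 1672 probe sets at a level of 4 or more whose group means spanned at least 0.5. They were GLIPR1 (r = 0.997), FRMD6 (0.991), PXK (0.984), HPGD (0.98) and TMEM139 (0.979). GLIPR1 204222_s_at averaged 0.83 in mimic arrays, -0.11 in scrambled arrays and -0.06 in mock arrays, close to CXCL8 with 0.77, -0.06 and -0.04. Most like CXCL12 209687_at, among 1673 candidates, were ZSCAN31 (r = 0.989), SEC23A (0.986), the ZEB1 probe set 212758_s_at (0.983), FRMD4A (0.983) and ARL2BP (0.981). SEC23A, a coat protein of vesicles that leave the endoplasmic reticulum, averaged -1.26 in mimic arrays, 0.14 in scrambled arrays and 0.02 in mock arrays. These correlations join 3 groups of arrays, and any probe set that separates the mimic from both controls scores high.

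The surrounding pathway was read from 7 gene lists, with a single value per gene fitted over 19775 genes. Of all genes, 7.54% were called higher and 6.95% lower between mimic and scrambled arrays, 8.27% higher and 10.1% lower between mimic and mock arrays, and 2.65% higher and 5.13% lower between scrambled and mock arrays. At an unadjusted p under 0.05 the shares, both directions together, were 26.5%, 30.6% and 24.1%, and list counts at that threshold are to be read against them. Adjusted p-values below are from limma over all genes, with n = 3 per group.

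Of the other chemokine genes, 29 of 33 were measured, and 1 was higher and 1 lower in mimic than in scrambled arrays. The median difference was 0.00, against -0.01 over all genes. CXCL9, which attracts T cells through CXCR3, read 0.17, 0.47 and 0.27 in mimic arrays, against -0.08, 0.00 and -0.15 in scrambled arrays and -0.04, 0.04 and -0.08 in mock arrays. It rose by 0.38 (SE 0.07, adjusted p = 0.00542), and no mimic array overlapped a control. XCL1, a lymphocyte chemokine, fell by 0.29 (SE 0.06, adjusted p = 0.0121), but its 2 probe sets gave -0.29 and 0.08 and the call was lost without scrambled replicate 3 (-0.25). Of these 29 genes, 1 lay in the class of 8 or more, 20 from 4 to 8 and 8 below 4.

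Of 21 chemokine receptor genes measured, 2 were higher and none was lower in mimic than in scrambled arrays by limma, with a median of -0.04. At an unadjusted p under 0.05, 2 were higher and 2 lower, where 26.5% of all genes passed. CCR10, a receptor of CCL27 and CCL28, read 0.56, 0.44 and 0.36 in mimic arrays, against 0.00, -0.21 and -0.24 in scrambled arrays and -0.03, 0.00 and 0.08 in mock arrays. It rose by 0.60 (SE 0.07, adjusted p = 0.00025), with no overlap with either control. CCRL2, an atypical receptor that does not signal like the others, rose by 0.23 (SE 0.06, adjusted p = 0.0256), and that call was lost without scrambled replicate 1 (0.17), mimic replicate 1 (0.20) or mimic replicate 2 (0.23).

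The receptors of the chemokines described above were looked up after the values were seen. CXCR1 and CXCR2, which bind CXCL8, differed by -0.15 (SE 0.05, adjusted p = 0.0788) and -0.04 (SE 0.09, adjusted p = 0.825). CXCR4, the receptor of CXCL12, differed by -0.16 as a gene (SE 0.08, adjusted p = 0.196) and by -0.31 from mock (adjusted p = 0.0149), and its probe sets disagreed. The call against mock was lost without mock replicate 1 (-0.30), mock replicate 2 (-0.27) or mimic replicate 3 (-0.29). CXCR4 217028_at read -0.41, -0.41 and -0.46 in mimic arrays, against 0.00, 0.35 and -0.22 in scrambled arrays and 0.43, 0.37 and 0.12 in mock arrays.

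That probe set was lower by 0.47 than in scrambled arrays (difference -0.47, SE 0.13, limma adjusted p over probe sets = 0.0448) and by 0.74 than in mock arrays (-0.74, adjusted p = 0.00371). The other CXCR4 probe sets, 209201_x_at and 211919_s_at, differed from scrambled by -0.03 and 0.01. ACKR3, which takes up CXCL12, differed by -0.20 (SE 0.07, adjusted p = 0.069). Its probe sets disagreed against mock, where 212977_at was lower (difference -0.41, limma adjusted p over probe sets = 0.0222). ACKR3 1559114_a_at and 232746_at differed from mock by 0.01 and -0.01. CCR2, CCR6, CX3CR1 and CXCR6, the receptors of CCL2, CCL20, CX3CL1 and CXCL16, differed by 0.09, 0.10, -0.04 and -0.09 in overlapping groups.

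Of 34 genes of NF-kB and inflammatory signalling, 2 were higher and 6 lower in mimic than in scrambled arrays, with a median of -0.04. IL1R1, the receptor of interleukin 1, fell by 0.36 (SE 0.04, adjusted p = 0.000334). Its values were -0.12, -0.07 and -0.11 in mimic arrays, against 0.23, 0.27 and 0.27 in scrambled arrays and -0.08, 0.00 and 0.03 in mock arrays, so that by this value the scrambled arrays stood apart and the mimic arrays overlapped mock. Its other probe set differed, with the mimic lower than mock by 0.28 (difference -0.28, called) and scrambled minus mock at 0.07. TNFRSF1A, a receptor of tumour necrosis factor, was lower than in both controls.

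TNFRSF1A read -0.26, -0.38 and -0.50 in mimic arrays, against 0.00, -0.01 and 0.02 in scrambled arrays and 0.26, 0.06 and 0.31 in mock arrays. It fell by 0.38 from scrambled (SE 0.07, adjusted p = 0.0052) and by 0.59 from mock (adjusted p = 0.000323). TAB3, an adaptor of the kinase TAK1, fell by 0.31 (SE 0.05, adjusted p = 0.000842), carried by 1 of 4 probe sets, and the mean of all its probe sets gave -0.14. IL1RAP, the partner of IL1R1 in its receptor, rose by 0.23 (SE 0.05, adjusted p = 0.00707). The subunit genes NFKB1 and RELA, looked up after the values were seen, differed by -0.14 and 0.05 (adjusted p = 0.171 and 0.805).

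Of 26 other inflammatory target genes, 4 were higher and 2 lower in mimic than in scrambled arrays, with a median of 0.07. MMP1, a collagenase, rose by 0.59 (SE 0.07, adjusted p = 0.00034) against scrambled, but its values were 0.10, -0.06 and 0.00 in mimic arrays, -0.72, -0.46 and -0.55 in scrambled arrays and 0.11, 0.20 and 0.29 in mock arrays. The scrambled arrays stood apart, by -0.77 from mock (adjusted p = 0.000453), and the mimic arrays lay slightly below mock (-0.19). PLAUR, the urokinase receptor gene, was alike, with 0.37 from scrambled (adjusted p = 0.000423) and 0.12 from mock (adjusted p = 0.128), although 1 of its 3 probe sets was called higher than mock (0.27).

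VCAM1, an adhesion protein for leukocytes, fell by 0.44 against scrambled (SE 0.06, adjusted p = 0.000376) and by 0.81 against mock (adjusted p = 6.25e-06). BIRC2, an inhibitor of apoptosis in the NF-kB pathway, rose by 0.32 against scrambled (adjusted p = 0.00149) and by 0.20 against mock (adjusted p = 0.0186). IL6, looked up after the values were seen as the cytokine most often read with CXCL8, read 0.54, 0.14 and 0.15 in mimic arrays, against 0.01, -0.05 and -0.08 in scrambled arrays and -0.13, -0.22 and 0.00 in mock arrays. It lay above all controls with 1 array far above the others, at 0.31 from scrambled (SE 0.10, adjusted p = 0.0609) and 0.39 from mock (adjusted p = 0.0191).

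Of 13 AP-1 and C/EBP factors, 4 stood higher and 1 lower in mimic than in scrambled arrays, with a median of 0.12, but 1 was higher and 5 lower than mock, with a median of -0.05. Between scrambled and mock arrays 0 were higher and 5 lower by limma (1 and 8 at an unadjusted p under 0.05), with a median of -0.15. JUNB rose by 0.30 (SE 0.05, adjusted p = 0.00202), CEBPB by 0.25 (SE 0.05, adjusted p = 0.00541) and CEBPG by 0.21 (SE 0.05, adjusted p = 0.00944) against scrambled. Against mock, JUNB differed by 0.16 (adjusted p = 0.0496), a call lost in 10 of 15 alternatives (at 0.13 to 0.17), CEBPB by -0.05 and CEBPG by 0.01. EGR1, an immediate early factor, fell by 0.46 from scrambled (SE 0.07, adjusted p = 0.00174) and by 0.27 from mock (adjusted p = 0.0268).

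CXCL8 and CXCL1 mRNAs carry AU-rich elements that mark them for decay. Of 13 genes of this decay and its regulation, limma called 0 higher and 4 lower in mimic than in scrambled arrays. At an unadjusted p under 0.05, which 26.5% of all genes passed, 3 were higher and 5 lower. The list's median was -0.06, and its regulators do not all act toward decay. CNOT8, a deadenylase subunit, read -0.14, -0.33 and -0.30 in mimic arrays, against 0.01, 0.07 and 0.03 in scrambled arrays and 0.08, 0.04 and 0.15 in mock arrays. It fell by 0.29 from scrambled (SE 0.06, adjusted p = 0.00568) and by 0.34 from mock (adjusted p = 0.00184), with no overlap. CNOT7 and CNOT6, further deadenylases, fell by 0.19 each from scrambled (adjusted p = 0.00805 and 0.0123), and differed from mock by -0.12 and -0.04, where neither was called. HNRNPD, an AU-rich element binding protein also called AUF1, fell by 0.16 (adjusted p = 0.0442), a call lost in 12 of the alternatives.

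Of 10 proteases and regulators that shed or trim chemokines, 1 was higher and 1 lower, with a median of 0.00. DPP4, which trims and inactivates CXCL12, read 0.18, 0.18 and 0.14 in mimic arrays, against -0.09, -0.05 and 0.01 in scrambled arrays and -0.09, 0.00 and -0.06 in mock arrays. It rose by 0.21 from scrambled (SE 0.05, adjusted p = 0.00944) and by 0.22 from mock (adjusted p = 0.00714), and its 3 probe sets were all called higher than scrambled. MMP2, a gelatinase that can cut chemokines, fell by 0.24 (SE 0.05, adjusted p = 0.00984), although the mean of its probe sets gave -0.07. ADAM10 and ADAM17, which shed CX3CL1 and CXCL16 and were looked up after the values were seen, differed by -0.08 and 0.11 (adjusted p = 0.41 and 0.251).

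**Figure D4:**
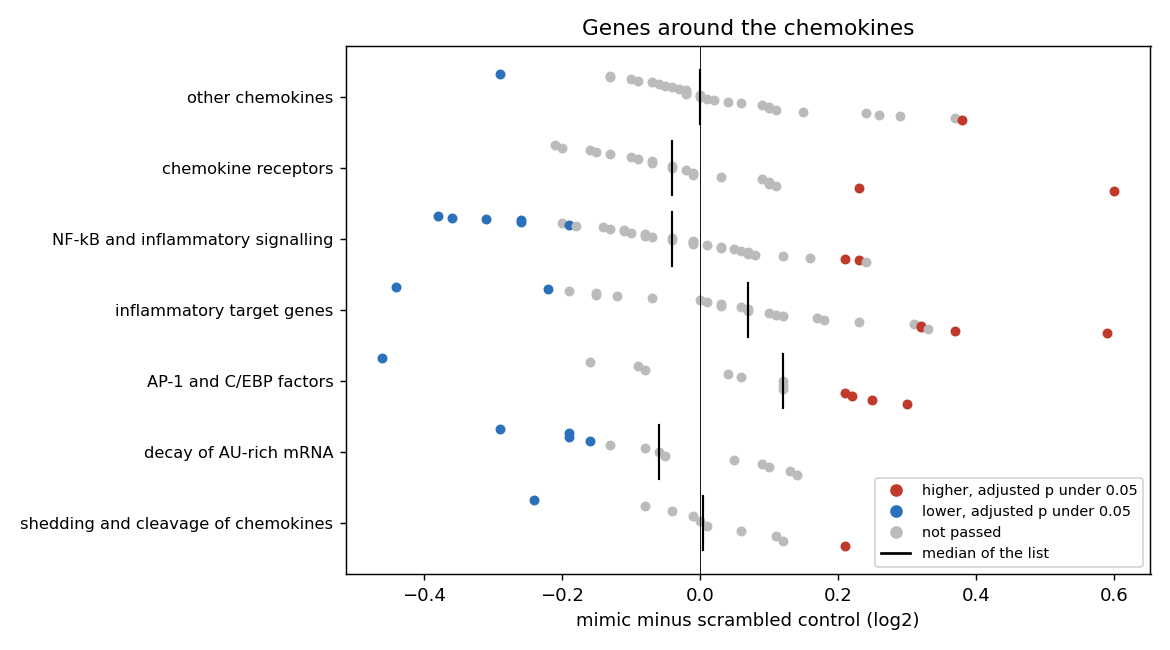
Log2 difference between mimic and scrambled means for each measured gene of 7 lists around the chemokines, with genes called higher in red, called lower in blue and others in grey. The line marks the list's median, which ran from -0.06 for decay of AU-rich mRNA to 0.12 for AP-1 and C/EBP factors.

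Against mock, several lists held called genes outside those above, and they are named here after their values were seen. Of the other chemokines 1 was higher (CXCL9, 0.33) and 1 lower (XCL1, -0.30), with a list median of 0.07 against 0.01 over all genes. Of the receptors 3 were higher (CCR10, CCRL2 and the homing receptor CCR7, by 0.43, 0.21 and 0.29) and 1 lower (CXCR4), with a median of 0.03. NF-kB signalling had 2 higher (IL1RAP and IRAK2) and 7 lower, among them TNFRSF1A and the kinase gene IKBKB (-0.32), with a median of -0.12. The inflammatory targets had 4 higher (IL6, IL11, BIRC2 and C3) and 4 lower (VCAM1, PLAU, MMP9 and IL32), with a median of 0.09.

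The AP-1 and C/EBP genes lower than mock were FOSL2 (-0.61), JUN, FOSL1, CEBPD and EGR1. Those of mRNA decay were CNOT8 and the RNA binding proteins KHSRP (-0.23) and ZFP36L1 (-0.18), which promote decay, with 0 higher by limma (0 also at an unadjusted p under 0.05) and a median of -0.07. Of the shedding list DPP4 was higher and MMP2 lower (-0.44), with a median of -0.01.

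Between scrambled and mock arrays, which carry no mimic, some of these genes differed as well. By limma, CXCL14 was higher among the other chemokines (0.18, adjusted p = 0.0492) with 0 lower, and 0 receptors were called. Of the 3 CXCL14 probe sets 0 were called, and the call of the gene was lost in most alternatives. NF-kB signalling had IL1R1 and IL1RAP higher and NFKBIZ and IKBKG lower. The inflammatory targets had TRAF1 and MMP3 higher and MMP1, VCAM1, PLAU and PLAUR lower. Lower too were FOSL2 (-0.52), FOSL1, CEBPD, CEBPB and CEBPG, ZFP36L1 (-0.32) and ELAVL1, and MMP2 (-0.19). At an unadjusted p under 0.05, the counts of genes higher and lower were 2 and 0 for other chemokines, 2 and 1 for receptors, 3 and 4 for mRNA decay and 0 and 3 for shedding, where 24.1% of all genes passed.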

How the data were processed

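RNA of 9 Hec50 samples was hybridised to Affymetrix arrays, each with biotin as its only label, per the labels' protocols. The deposited values are log2 expression, centred per probe set: each probe set's median was exactly 0 (100.0% of them). No source used here gives the authors' summary or normalization method. More than 1 exact 0 stood in 48.89% of probe sets, for a reason that is not known. The level class was recovered from stored rounding (97.9% of 6000 simulated probe sets recovered). The simulated probe sets were drawn without such ties, and a tied 0 gives the class less to go on. How often the class is right in these data is therefore not known.

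A model of 3 group means over all arrays was fitted with limma 3.58.1 under R 4.3.3 (lmFit, eBayes, two-sided, Benjamini-Hochberg), over 54613 probe sets without 62 controls, and over 19775 genes (averaging probe sets of the highest level class present). On simulated data for mimic against scrambled arrays the probe set fit recovered 91%, 100% and 100% of features changed by 0.5, 1 and 2, and the gene fit 97%, 100% and 100%. Members and lists were chosen with earlier results of these data known. The rule for named genes took all members, up to 4 called genes per list with the smallest p, the 5 nearest patterns to CXCL8 and CXCL12, and CDH1, ZEB1 and ZEB2. Genes outside it (markers, cluster neighbours, receptors, IL6, NFKB1, RELA, ADAM10, ADAM17 and further genes called against mock or between the controls) were named after their values were seen. Alternatives were quantile normalization, each array left out, only the groups compared, a replicate block, level filters and the mean of all probe sets of a gene.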

Additional observations from a re-analysis of the deposited data

How the results depend on the processing

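Both CXCL8 and both CXCL12 probe sets and CXCL1 kept direction and call against scrambled and mock under every alternative run, as did CCL2 against scrambled. The alternatives refit the same arrays on which these genes were chosen. Kept calls therefore describe the dependence on processing and are no independent support. No log2 change of a chemokine that was called turned direction. CX3CL1 203687_at against mock (0.18) lost its call in 11 alternatives, at 0.16 to 0.19, and 823_at against scrambled passed under quantile normalization (0.20) and at a level of 8 or more or 4 or more (0.19). Of 88 called changes of list genes, 43 were lost in at least 1 alternative.

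A level of 8 or more left 6 chemokine probe sets, 1 other chemokine, 1 receptor, 9 inflammatory targets and 12 decay genes to test. Of these, 4 chemokine probe sets were called against mock, and the other chemokine in no comparison. The receptor was called neither against scrambled nor against mock. Inflammatory targets called were 3 for mimic against mock and 3 for scrambled against mock. For scrambled against mock, 6 decay genes and 3417 of all probe sets at this level were called. With so few genes left, these counts are not read as results. At 4 or more, scrambled against mock gave 1 receptor and 7 NF-kB genes, and after quantile normalization 1, 8 and 4 of mRNA decay. With the mean of all probe sets, other chemokines called were 1, 1 and 0 for mimic against scrambled, mimic against mock and scrambled against mock, decay genes were 2 against scrambled and shedding genes 1 against mock. Fitting only the groups compared gave 1 receptor against scrambled, and 1409 probe sets and 0 shedding genes for scrambled against mock.

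No clear sign of pairing by replicate number was seen, though 3 arrays per group make this a weak check. The deviations of same-numbered samples from their group means correlated at r = -0.16 to 0.12. Not every sample correlated best with its own number. With a replicate block, 4 other chemokines were called between mimic and scrambled arrays, and between scrambled and mock arrays 0 other chemokines, 0 shedding genes and 1366 probe sets.

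Leaving out each array in turn, the calls between mimic and scrambled arrays ranged over 3448 to 4494 probe sets, 2158 to 2741 genes, 6 to 8 chemokine probe sets, 1 to 3 other chemokines (1 without scrambled replicate 3), 1 to 3 receptors (1 without scrambled replicate 1, mimic replicate 1 or mimic replicate 2), and 3 to 4 decay genes. Between mimic and mock arrays they ranged over 4349 to 6599 probe sets (4349 without mock replicate 2), 5 to 7 chemokine probe sets, 2 to 4 other chemokines (4 without mock replicate 1 or mimic replicate 3), 1 to 4 receptors (1 without mock replicate 2, and 2 without mock replicates 1 or 3 or mimic replicate 2), 4 to 10 NF-kB genes (4 without mock replicate 2 or mimic replicate 2, and 5 without mimic replicate 3), 4 to 9 inflammatory targets (4 without mock replicate 1, and 5 without mock replicate 2 or mimic replicates 2 or 3), 3 to 6 AP-1 and C/EBP genes (3 without mock replicate 2 or mimic replicate 3) and 1 to 3 decay genes (1 without mimic replicates 2 or 3). Between scrambled and mock arrays, where each omission of a mock or scrambled array lowered the total by over 1.5 times, they ranged over 732 to 2059 probe sets, 742 to 1602 genes, 0 chemokine probe sets throughout, 0 to 2 other chemokines, 0 to 1 receptors, 3 to 6 inflammatory targets, 1 to 2 decay genes and 0 to 2 shedding genes.

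How far signals lay above background is not known, so values in the class below 4, among them all of CXCL5, limit what can be said of presence.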

Other observations

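Some values of the chemokine probe sets were the same between arrays after rounding, which does not show that they were exactly equal. CXCL2 209774_x_at stood at 0.00 on all 3 mock arrays and CCL20 205476_at at 0.00 on all 3 scrambled arrays, to 2 decimals. Over the table, more than 1 of the 9 values was exactly 0 in 48.89% of probe sets, and the origin of these ties is not known.

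In several genes around the chemokines the scrambled arrays stood apart from both other groups in the gene-level values. MMP1 lay at 0.10, -0.06 and 0.00 in mimic arrays, against -0.72, -0.46 and -0.55 in scrambled arrays and 0.11, 0.20 and 0.29 in mock arrays. IL1R1, PLAUR, CEBPB and CEBPG were, like MMP1, not called between mimic and mock arrays at a limma adjusted p under 0.05 (adjusted p = 0.255, 0.128, 0.569, 0.942 and 0.114). Probe sets disagreed in part, since 1 of the 2 of IL1R1 was called lower (-0.28) and 1 of the 3 of PLAUR higher (0.27) in mimic than in mock arrays.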
